A study of Mus musculus with 15 samples.

Results

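Enzymes that make, interconvert, salvage and break down purine nucleotides were followed in the fat around the mouse aorta, in the presence and absence of Prdm16 in adipocytes. The list had 9 genes, named by symbol: Gmpr, Gmpr2, Impdh1, Impdh2, Gmps, Adsl, Hprt, Pnp and Xdh. Of these, 8 had a row under their identifier among the 43352 genes of the count table, and all 8 were among the 19645 genes tested. Pnp had no row under its own identifier in the annotation used and is not analysed as a member. The low levels of Gmpr and Impdh1 in thoracic knockout fat were known when the list was drawn up. For the 8 genes, the comparison of genotypes in thoracic fat, and its difference from the abdominal comparison, are therefore given as a description with no p-value.

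The tissue was perivascular adipose tissue of the thoracic aorta (tPVAT) or of the abdominal aorta (aPVAT), from mice 11 weeks old. All mice carried the Prdm16flox allele. Controls carried that allele alone, and knockouts (cKO) carried it with AdipoQCre, a Cre recombinase driven by the adiponectin promoter, which is active in adipocytes and leaves Prdm16 intact in the other cells of the tissue. Poly(A) RNA of whole tissue was sequenced from 4 thoracic control, 4 thoracic knockout, 4 abdominal control and 3 abdominal knockout libraries, numbered as in the labels, where the abdominal knockouts are 1, 3 and 4. The labels do not say that each library is a separate animal, so the p-values measure the spread between these libraries.

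Guanine nucleotides are made from inosine monophosphate (IMP). IMP dehydrogenase, with the isozymes Impdh1 and Impdh2, oxidises IMP to xanthosine monophosphate in the rate-limiting step, and Gmps aminates that product to GMP. GMP reductase, with the isozymes Gmpr and Gmpr2, runs the other way and returns GMP to IMP. Adsl acts in the de novo synthesis of IMP and in the conversion of IMP to AMP, Hprt salvages hypoxanthine and guanine, and Pnp and Xdh break purines down, Xdh in the last steps to uric acid. In brown fat, purine nucleotides bind the uncoupling protein Ucp1 and inhibit it, and fatty acids released on cold stimulation overcome that inhibition.

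The promoters of both genes that differed most among the groups, Gmpr and Impdh1, and of the isozyme Impdh2, which went the other way between depots, are shown from RefSeq on GRCm38.p6. Each runs from 250 bases before the annotated start to 50 bases after it, on the strand of the gene, and RefSeq lists 2 starts for Impdh1. Gmpr lies at chr13:45507194-45507493 on the plus strand, Impdh1 at chr6:29216315-29216614 and chr6:29212248-29212547 on the minus strand, and Impdh2 at chr9:108560186-108560485 on the plus strand. Capitals mark the nuclear receptor hexamer (AGGTCA) in Gmpr and an E-box (CACGTG) in Impdh2.
Gmpr: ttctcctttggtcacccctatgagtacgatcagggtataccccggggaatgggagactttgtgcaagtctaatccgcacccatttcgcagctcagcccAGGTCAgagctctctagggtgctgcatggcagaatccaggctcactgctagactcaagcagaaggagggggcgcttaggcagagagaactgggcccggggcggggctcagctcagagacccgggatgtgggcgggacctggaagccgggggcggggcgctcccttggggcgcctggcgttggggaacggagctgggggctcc
Impdh1, first start: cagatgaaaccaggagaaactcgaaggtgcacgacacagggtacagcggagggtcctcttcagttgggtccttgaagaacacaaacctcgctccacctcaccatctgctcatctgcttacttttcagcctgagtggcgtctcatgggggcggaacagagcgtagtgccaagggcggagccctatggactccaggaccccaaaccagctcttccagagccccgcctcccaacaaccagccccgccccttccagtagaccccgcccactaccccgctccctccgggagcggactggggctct
Impdh1, second start: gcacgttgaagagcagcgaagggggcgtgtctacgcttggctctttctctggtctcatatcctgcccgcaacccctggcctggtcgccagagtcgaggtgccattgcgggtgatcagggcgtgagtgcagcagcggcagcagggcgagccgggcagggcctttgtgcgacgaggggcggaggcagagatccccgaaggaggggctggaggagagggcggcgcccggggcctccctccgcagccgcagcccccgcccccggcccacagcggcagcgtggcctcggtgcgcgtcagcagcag
Impdh2: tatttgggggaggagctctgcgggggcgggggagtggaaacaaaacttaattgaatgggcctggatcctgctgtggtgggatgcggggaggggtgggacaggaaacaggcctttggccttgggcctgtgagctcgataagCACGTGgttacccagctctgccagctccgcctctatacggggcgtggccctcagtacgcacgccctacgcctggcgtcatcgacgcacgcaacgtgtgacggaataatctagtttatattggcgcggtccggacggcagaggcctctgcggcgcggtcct
RefSeq promoters were matched for 8 of the 9 listed genes, as 9 promoters; Xdh is named only. On both strands, none of the 9 held the ERR response element (TCAAGGTCA), the PPAR and RXR element (AGGTCA, 1 base of any kind, AGGTCA), the EBF element (TCCC, 2 bases of any kind, GGGA) or the cyclic AMP response element (TGACGTCA). Of all 32851 mouse promoters of that length, 0.423%, 0.0396%, 0.904% and 1.79% held them, in that order. The E-box occurred in 1 of the 9, that of Impdh2, against 7.15% of all promoters. The hexamer AGGTCA, which is contained in the ERR and the PPAR and RXR elements and was added after these searches, occurred in 1 of the 9, that of Gmpr, against 16.3% of all promoters. The 9 promoters were 47.3% to 71.3% G and C, against a median of 52.7% over all promoters.

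Library totals ran from 37.8 M to 68.7 M counts. Levels are TMM-scaled CPM, the counts of a gene per M counts of the scaled library total (M, mega), and levels of different genes are compared only per kilobase of merged exons. The 8 adipocyte markers, among them Adipoq and Plin1, summed to between 11746 and 16445 CPM over all libraries, and none was at 0. Prdm16 stood at 47.3 ± 6.04 CPM in thoracic controls, 22.4 ± 1.07 in thoracic knockouts (both SD, n = 4), 23.7 ± 2.22 in abdominal controls (SD, n = 4) and 16.1 ± 1.99 in abdominal knockouts (SD, n = 3). Ucp1 stood at 6257 ± 277, 4059 ± 417, 546 ± 210 and 18.8 ± 25.1 CPM in the same order; the last group held 5.56, 47.8 and 3.15 CPM. The genes of the mitochondrial genome took 33.4% to 36.4% of thoracic control counts, 26.5% to 31.6% of thoracic knockout counts and 13% to 16% of abdominal counts. Ribosomal RNA rows, chosen after their values were seen, took 3.17% of abdominal knockout 4 and 1.34% of abdominal control 2, against at most 1.15% elsewhere, so the depot and abdominal comparisons of the 8 genes were also run without these 2 libraries.

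Gmpr (GRCm38, chr13:45507444-45553800, plus strand) had the widest range of the 8 genes, 39.3-fold between the lowest and the highest of the 15 libraries. In thoracic controls 1 to 4 it stood at 131, 119, 74.6 and 119 CPM. In thoracic knockouts 1 to 4 it stood at 41.4, 30.0, 45.2 and 27.7 CPM. Every thoracic knockout library lay below every thoracic control. In abdominal controls 1 to 4 the level was 6.72, 4.37, 5.08 and 4.44 CPM, and in abdominal knockouts 1, 3 and 4 it was 3.34, 3.40 and 3.87 CPM. The 4 groups did not overlap, and thoracic control 3 was the low library of its group. The gene shares 375 exon bases with Atxn1 on the opposite strand; Atxn1 stood at 31.1, 24.6, 26.7 and 29.6 CPM in the 4 groups, in the order above.

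Impdh1 (chr6:29200434-29216364, minus strand), the isozyme of the rate-limiting step, was ordered in the same way over a narrower range of 5.53-fold. Its level was 103, 129, 96.3 and 98.7 CPM in thoracic controls 1 to 4 and 49.3, 54.7, 52.5 and 58.0 CPM in thoracic knockouts 1 to 4. It was 34.9, 31.4, 32.9 and 30.8 CPM in abdominal controls 1 to 4, and 25.5, 23.3 and 25.8 CPM in abdominal knockouts 1, 3 and 4. Here too the 4 groups did not overlap, and thoracic control 2 was the high library of its group.

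Gmpr2 (chr14:55671941-55679200, plus strand), the second GMP reductase, stayed between 13.8 and 16.8 CPM in all 15 libraries, a range of 1.22-fold. Only 1.9% of the 13535 genes with a mean of at least 2 CPM had a smaller ratio of highest to lowest library, and their median ratio was 1.83. Its exons overlap Tinf2 and Nedd8 on the opposite strand. Impdh2 (chr9:108560286-108565584, plus strand), the second IMP dehydrogenase, stood at 3.56 to 4.31 CPM in thoracic controls, 3.39 to 4.08 in thoracic knockouts, 5.47 to 6.83 in abdominal controls and 5.41 to 6.40 in abdominal knockouts. No thoracic library reached an abdominal one. Of the stretches of 50 bases in its transcripts, 39.3% also occur in the pseudogene Impdh2-ps, so its level is uncertain by reads the counting could have split.

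**Figure D1:**
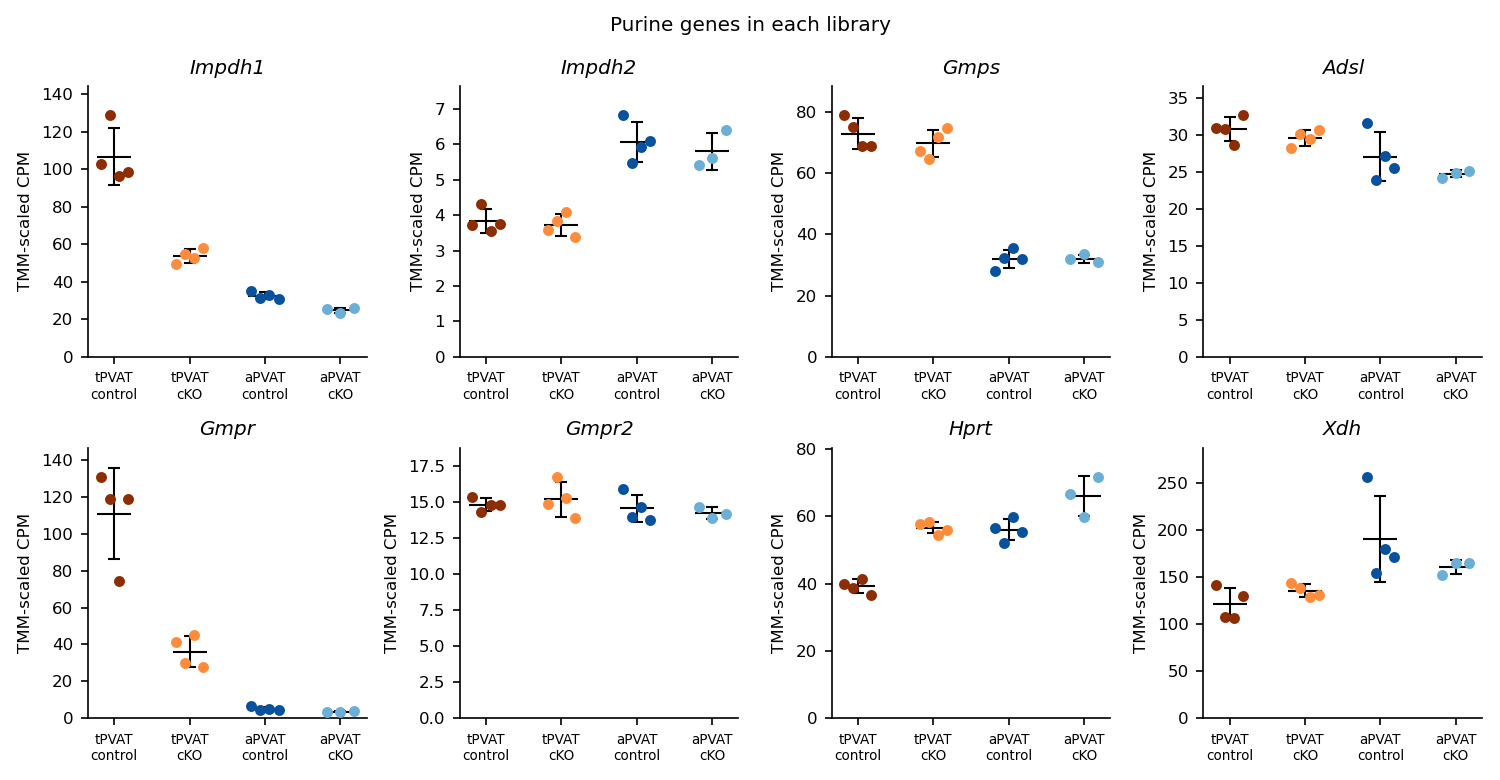
Level of each of the 8 purine genes in TMM-scaled CPM (vertical axis, from 0), with 1 point per library, grouped as thoracic control, thoracic knockout, abdominal control and abdominal knockout; bars give the mean and SD. Gmpr and Impdh1 step down over the 4 groups without overlap, whereas Gmpr2 stays between 13.8 and 16.8 in all 15 libraries.

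The remaining 4 genes fell into separate patterns. Gmps (chr3:63976106-64022579, plus strand), the GMP synthetase, differed by depot. It was at 78.9, 74.9, 68.7 and 68.8 CPM in thoracic controls and 67.3, 64.7, 71.7 and 74.8 in thoracic knockouts. In abdominal controls it was at 28.1, 32.4, 35.4 and 31.8 CPM, and in abdominal knockouts at 31.8, 33.4 and 30.8. The lowest thoracic library was above the highest abdominal one, and the genotypes overlapped within each depot. Hprt (chrX:52988137-53021659, plus strand), the salvage enzyme, stood at 40.0, 38.8, 41.5 and 36.6 CPM in thoracic controls, below every other library of the study. It was at 57.8, 58.3, 54.5 and 56.0 CPM in thoracic knockouts and at 56.6, 52.2, 59.9 and 55.3 CPM in abdominal controls, which overlapped, and at 66.5, 59.7 and 71.8 CPM in abdominal knockouts.

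Xdh (chr17:73883895-73950196, minus strand), which forms uric acid in purine breakdown, stood at 142, 108, 107 and 130 CPM in thoracic controls and at 144, 139, 129 and 131 CPM in thoracic knockouts. It was at 257, 154, 180 and 171 CPM in abdominal controls and at 152, 165 and 165 CPM in abdominal knockouts. Abdominal control 1 stood highest of all, and every abdominal library was above every thoracic one. Adsl (chr15:80948490-80970946, plus strand), which acts in the synthesis of IMP and of AMP, moved least after Gmpr2, from 23.9 to 32.7 CPM over all libraries.

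Per kilobase, the order of the genes changed with depot. The merged exons take in all annotated transcripts of a gene, from 1289 bases for Hprt to 9175 for Xdh. The order between genes depends on these lengths, and the lengths of the transcripts present were not measured. In thoracic controls Gmpr led at 47.8 ± 10.7 CPM per kilobase, with Impdh1 at 32.4 ± 4.53 and Hprt at 30.4 ± 1.61 (SD, n = 4); the ranges of Gmpr and Impdh1, and of Impdh1 and Hprt, overlapped. Xdh followed at 13.3, Gmps at 8.99, Adsl at 5.47, Gmpr2 at 3.78 and Impdh2 at 1.25, each apart from its neighbour. In thoracic knockouts Hprt led at 44.0 ± 1.33 (SD, n = 4), and Impdh1 at 16.3, Gmpr at 15.5 and Xdh at 14.8 had ranges that overlapped from each to the next. In abdominal controls Hprt at 43.4 and Xdh at 20.8 led, Impdh1 was at 9.87, and Gmpr at 2.22 overlapped only Impdh2 at 1.98. In abdominal knockouts Gmpr was the lowest of the 8 genes at 1.52 ± 0.126 CPM per kilobase (SD, n = 3).

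The balance of isozymes differed among the 4 groups, in the same order for both steps. The ratio of Gmpr to Gmpr2 per kilobase within a library was 12.6 ± 2.78 in thoracic controls, 4.01 ± 0.965 in thoracic knockouts, 0.592 ± 0.0862 in abdominal controls (SD, n = 4 each) and 0.420 ± 0.0387 in abdominal knockouts (SD, n = 3). Gmpr thus held 92.4% of the reductase transcripts per kilobase in thoracic controls and 37.1% in abdominal controls. On the opposite strand, Gmpr2 shares 1540 exon bases with Tinf2 and 184 with Nedd8, and Gmpr shares 375 with Atxn1. The strand setting of the counting is unstated, so this ratio and share are uncertain. The ratio of Impdh1 to Impdh2 was 25.9 ± 1.45, 13.5 ± 1.71, 5.01 ± 0.318 and 4.01 ± 0.345 in the same groups, and Impdh1 held 96.3% of the dehydrogenase transcripts in thoracic controls and 80% in abdominal knockouts. The 4 groups did not overlap in either ratio, which no scaling of libraries changes. The ratio and share of Impdh1 carry the uncertainty of Impdh2. Of the stretches of 50 bases of Impdh2, 39.3% also occur in Impdh2-ps, against 0% of those of Impdh1 in any other gene. The ratios are a description, since Gmpr and Impdh1 entered the list for their change.

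**Figure D2:**
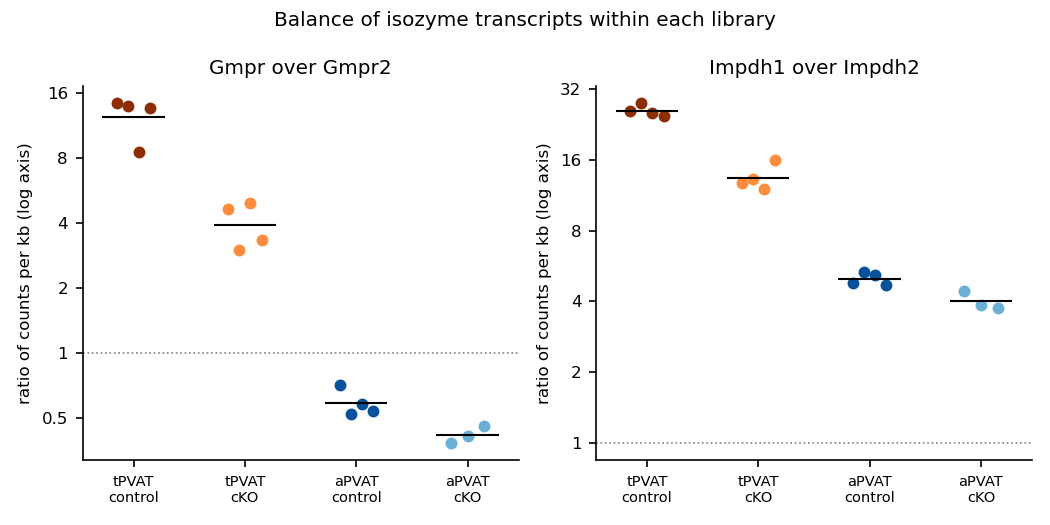
Ratio of Gmpr to Gmpr2 and of Impdh1 to Impdh2 per kilobase within each library (vertical log axis), with 1 point per library in the 4 groups. Gmpr exceeds Gmpr2 in every thoracic library, down to a ratio of 3.01, and is below it in every abdominal library, up to 0.716, whereas Impdh1 exceeds Impdh2 in all 15.

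Abdominal fat was then compared with thoracic fat, separately within controls and within knockouts. The thoracic libraries, whose difference in Gmpr and Impdh1 was known when the list was drawn up, enter these comparisons too. The p-values of Gmpr and Impdh1 between depots are therefore not independent of that choice. In controls, 7 of the 8 genes passed an adjusted p of 0.05 (edgeR quasi-likelihood test, Benjamini-Hochberg over all genes tested), 3 higher and 4 lower in abdominal fat, where 56.6% of all tested genes passed, 29.3% higher and 27.3% lower, and the median log2 change was -0.10 for the 8 genes and 0.04 for all. More genes of the tissue passed than did not. Gmpr was 21.5-fold lower in abdominal controls (log2 change -4.43 ± 0.211 SE, edgeR adjusted p = 1.96e-10), Impdh1 3.28-fold lower (-1.71 ± 0.0889, edgeR adjusted p = 3.60e-10) and Gmps 2.28-fold lower (-1.19 ± 0.076, edgeR adjusted p = 2.79e-09). Impdh2 was higher by 0.66 ± 0.0999 (edgeR adjusted p = 3.63e-05), Xdh by 0.65 ± 0.131 (edgeR adjusted p = 0.000574) and Hprt by 0.51 ± 0.0661 (edgeR adjusted p = 7.37e-06). So both enzymes from IMP to GMP, as Impdh1 and Gmps, and the reductase Gmpr were lower in abdominal fat, whereas the salvage enzyme, the breakdown enzyme and the minor dehydrogenase were higher. Adsl was lower by a log2 change of -0.19 ± 0.0761 (edgeR adjusted p = 0.0477), a call lost when any 1 of 12 libraries was left out (edgeR adjusted p from 0.0542 to 0.14) or without the 2 libraries of high ribosomal RNA (edgeR adjusted p = 0.158), where the other 6 stayed called. Gmpr2 did not pass (-0.02 ± 0.068, edgeR adjusted p = 0.802), and 6 of the 8 genes had no overlap between depots, against 49.5% of all genes.

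In knockouts, 6 of the 8 genes passed, 2 higher and 4 lower, where 52.6% of all tested genes passed, 27.2% higher and 25.4% lower. Between these groups 7 of the 8 genes, all but Gmpr2, had no overlap of libraries, against 55.0% of all genes. Gmpr was 10.2-fold lower in abdominal knockouts (-3.36 ± 0.232, edgeR adjusted p = 1.09e-08), Impdh1 2.16-fold lower (-1.11 ± 0.0969, edgeR adjusted p = 1.47e-07) and Gmps 2.18-fold lower (-1.12 ± 0.0835, edgeR adjusted p = 2.38e-08). Impdh2 was higher by 0.64 ± 0.107 (edgeR adjusted p = 0.000134), Adsl was lower at -0.26 ± 0.0827 (edgeR adjusted p = 0.0147) and Hprt was higher by 0.22 ± 0.0707 (edgeR adjusted p = 0.0163). The call of Hprt was lost without abdominal knockout 4 (edgeR adjusted p = 0.106) and that of Adsl without abdominal knockout 1 (edgeR adjusted p = 0.051). Without the 2 libraries of high ribosomal RNA, Gmpr was at -3.42, Impdh1 at -1.14, Gmps at -1.10, Impdh2 at 0.56 and Adsl at -0.27, all still called, and Hprt at 0.16 was not (edgeR adjusted p = 0.0825). Xdh, at 0.24 ± 0.141 (edgeR adjusted p = 0.157), and Gmpr2, at -0.10 ± 0.0734 (edgeR adjusted p = 0.274), did not pass. Xdh passed without abdominal control 1 (edgeR adjusted p = 0.0338), a library outside this comparison. It also passed with only the 2 groups compared in the fit (0.25, edgeR adjusted p = 0.0101). By library totals Xdh passed at 0.90 (edgeR adjusted p = 3.26e-05). The 2 depot comparisons share no library. Scaling by library totals in place of TMM moved the median of all genes by 0.75 in controls and 0.65 in knockouts. It turned the split of all called genes from 5750 higher and 5372 lower to 14618 and 1419 in controls, and from 5341 and 4984 to 13596 and 1410 in knockouts. Under it Adsl and Gmpr2 turned to higher in abdominal fat in both.

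In abdominal fat, loss of Prdm16 gave no call among the 8 genes by edgeR, where 1.53% of all tested genes passed, 0.743% higher and 0.789% lower; 3 had an unadjusted p under 0.05, and DESeq2 called 2 of the 8. Impdh1 had a log2 change of -0.39 ± 0.095 (edgeR adjusted p = 0.057), DESeq2 gave it an adjusted p of 0.00954, and every abdominal knockout library lay below every control. It passed by edgeR without thoracic control 2 (adjusted p = 0.0116), a library outside this comparison that enters through the shared spread. Gmpr had -0.55 ± 0.22 (edgeR adjusted p = 0.3), with no overlap between genotypes. Hprt had 0.24 ± 0.0706 (edgeR adjusted p = 0.137; DESeq2 adjusted p = 0.0466), with abdominal knockout 3 inside the range of the controls. Xdh had -0.25 ± 0.142 (edgeR adjusted p = 0.502) and Adsl -0.13 ± 0.0823 (edgeR adjusted p = 0.544), and Gmps, Gmpr2 and Impdh2 lay between -0.07 and 0.00. Without the 2 libraries of high ribosomal RNA none of the 8 was called either; Gmpr was at -0.68, Impdh1 at -0.43 (edgeR adjusted p = 0.08), Hprt at 0.14, Xdh at -0.36, Adsl at -0.20 and Impdh2 at -0.19. Non-overlapping genotypes, as in 2 of the 8 genes, occurred in 9.56% of all genes.

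In thoracic fat, the comparison known when the genes were chosen, Gmpr stood 3.08-fold lower in knockouts (log2 change -1.62 ± 0.186 SE) and Impdh1 stood 1.99-fold lower (-0.99 ± 0.0873). Hprt stood 1.44-fold higher (0.53 ± 0.0663), and its knockout libraries, from 54.5 to 58.3 CPM, did not overlap the controls, from 36.6 to 41.5. Xdh was at 0.16 ± 0.131 with overlapping libraries, and Gmpr2, Impdh2, Gmps and Adsl lay between -0.06 and 0.04. In all, 3 of the 8 genes passed the threshold, 1 higher and 2 lower, where 12.0% of all tested genes passed, 5.44% higher and 6.61% lower. The same 3 genes had no overlap between genotypes, against 23.2% of all genes, and nothing is read from either count. Hence Gmps, the step after Impdh1, and the second isozymes of both pairs stayed within 0.06 of zero on the log2 scale where Gmpr and Impdh1 stood low.

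The genotype change in abdominal fat minus that in thoracic fat was 1.07 ± 0.284 (log2, SE) for Gmpr and 0.60 ± 0.128 for Impdh1, the thoracic change being the more negative, and -0.40 ± 0.193 for Xdh and -0.29 ± 0.097 for Hprt. The other 4 genes lay between -0.08 and 0.07. Of the 8 genes 1, Impdh1, passed the threshold in the positive direction, where 0.784% of all tested genes passed, 0.158% positive and 0.626% negative, and nothing is read from that. Its call was lost by library totals, without the 2 libraries of high ribosomal RNA and without any 1 of 9 single libraries, with log2 values from 0.50 to 0.65 over all alternatives.

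**Figure D3:**
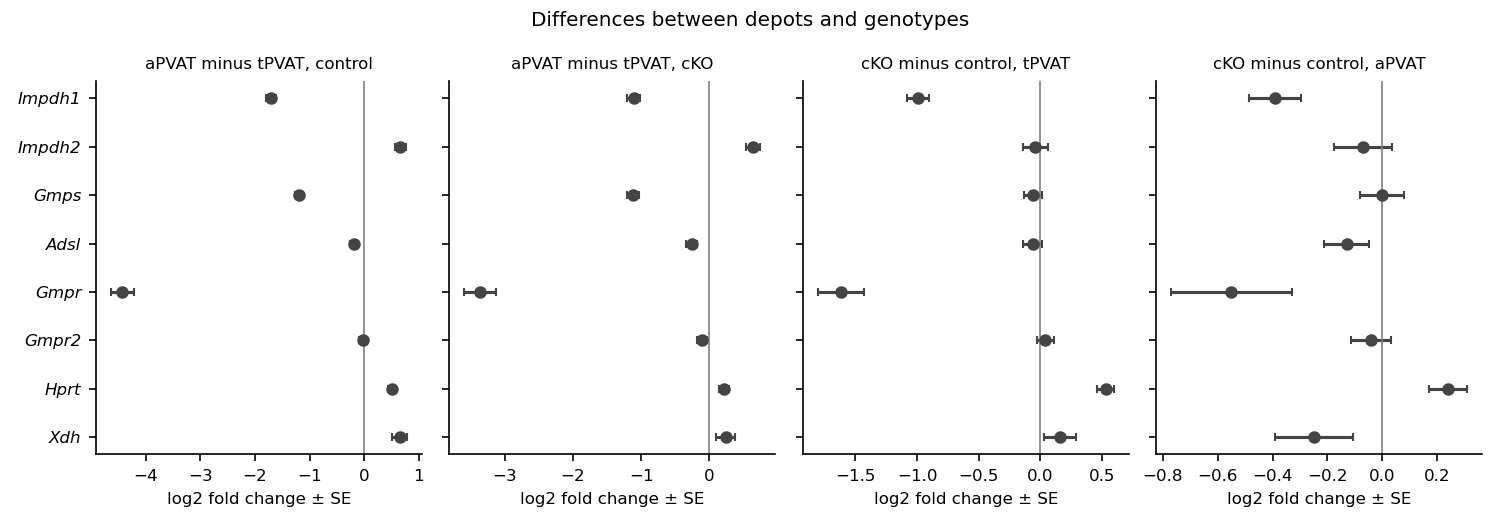
Log2 fold change of each gene (horizontal axis, error bars SE) in the 4 comparisons of 2 groups, with 1 point per gene; horizontal scales differ between panels. Gmpr lies furthest left in both depot comparisons, at -4.43 and -3.36, and at -1.62 in the thoracic genotype comparison.

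Further purine genes came from a list of 73, grouped by role, of which 70 were tested. In thoracic fat, 5 rose and 9 fell with loss of Prdm16 (14 of 70, where 12.0% of all genes passed), with a median of -0.01, as over all genes. The split was 8 and 7 when scaled by library totals, where that of all genes went from 1069 higher and 1298 lower to 1501 and 743, and 8 and 8 with only the 2 groups in the fit. Slc29a1, a nucleoside transporter, fell by 0.56 on the log2 scale, from 49.3 ± 2.67 to 33.4 ± 0.581 CPM (SD, n = 4 each; edgeR adjusted p = 0.000253). Adk, the adenosine kinase, fell by 0.36 (edgeR adjusted p = 0.000475), and Entpd5, a nucleoside diphosphatase, fell by 0.41 (edgeR adjusted p = 0.000786). Pfas, a step of de novo IMP synthesis, fell by 0.33 (edgeR adjusted p = 0.00537), Ampd2, an AMP deaminase, fell by 0.42 (edgeR adjusted p = 0.00773), and Adora2a, an adenosine receptor, fell by 0.50 (edgeR adjusted p = 0.00766). Mocos, which sulfurates the cofactor that Xdh needs, rose by 0.38, from 8.62 ± 0.69 to 11.2 ± 0.703 CPM (SD, n = 4 each; edgeR adjusted p = 0.00313). By role, 3 of 15 genes listed under extracellular purines fell (Slc29a1, Entpd5 and Adora2a). Of the salvage kinases and phosphoribosyltransferase 2 of 4 fell, and none of either role rose. Over all genes 6.61% fell and 5.44% rose. In de novo IMP synthesis 2 of 9 rose and 1 fell.

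In abdominal fat none of the 70 passed by edgeR with loss of Prdm16 (1.53% of all genes); 11 had an unadjusted p under 0.05, and DESeq2 called 3. None passed for the difference between the genotype effects (0.784% of all genes); 11 had an unadjusted p under 0.05 and DESeq2 called 2. Between depots in controls, 27 of 70 were higher and 25 lower in abdominal fat (56.6% of all genes passed), with a median of -0.01 against 0.04 for all genes, and 58 were higher and 3 lower by library totals. Adssl1, the muscle form of adenylosuccinate synthetase, was lower by a log2 change of -1.57 ± 0.0847 (edgeR adjusted p = 5.05e-10), the adenylate kinase Ak1 by -1.28 ± 0.0936 (edgeR adjusted p = 1.24e-08), Entpd5 by -0.75 ± 0.0666 (edgeR adjusted p = 1.20e-07) and the guanylate kinase Guk1, which acts on GMP, by -0.70 ± 0.0694 (edgeR adjusted p = 3.92e-07). Higher were Ak5 at 1.79 ± 0.163 (edgeR adjusted p = 1.65e-07), Entpd2, an ATP-hydrolysing ectoenzyme, at 1.35 ± 0.101 (edgeR adjusted p = 1.64e-08), Nt5e, which makes adenosine outside cells, at 1.05 ± 0.0907 (edgeR adjusted p = 9.04e-08), and Prps1, which makes the ribose phosphate donor of purine synthesis, at 0.98 ± 0.0837 (edgeR adjusted p = 8.04e-08). All 4 tested genes of the AMP branch and the AMP deaminases were lower (27.3% of all genes). Of 15 genes listed under extracellular purines, 8 were higher (29.3% of all genes) and 3 lower. In the same comparison 7 of 8 skeletal muscle markers were lower (27.3% of all genes) and none higher. They summed to 12, 13.1, 19.8 and 81.2 CPM in thoracic controls 1 to 4 and to 4.11 to 7.2 in abdominal controls, none at 0. In knockouts 1 of 8 was lower (25.4% of all genes) and none higher in abdominal fat. There they summed to 6.9 to 21.9 CPM in thoracic and 3.7 to 15.1 in abdominal libraries. The part of skeletal muscle RNA in the AMP branch was not tested. Of the 70 purine genes, 24 were higher and 22 lower between depots in knockouts (52.6% of all genes passed), and 55 and 3 by library totals. In this comparison Adssl1 was at -1.85, Ak1 at -1.33, Ak6 at -0.80, Paics of IMP synthesis at -0.53, Ak5 at 1.67, Entpd2 at 1.27, Nt5e at 1.22 and the ectoenzyme Enpp1 at 0.97, with edgeR adjusted p of 2.02e-06 or smaller in each.

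**Figure D4:**
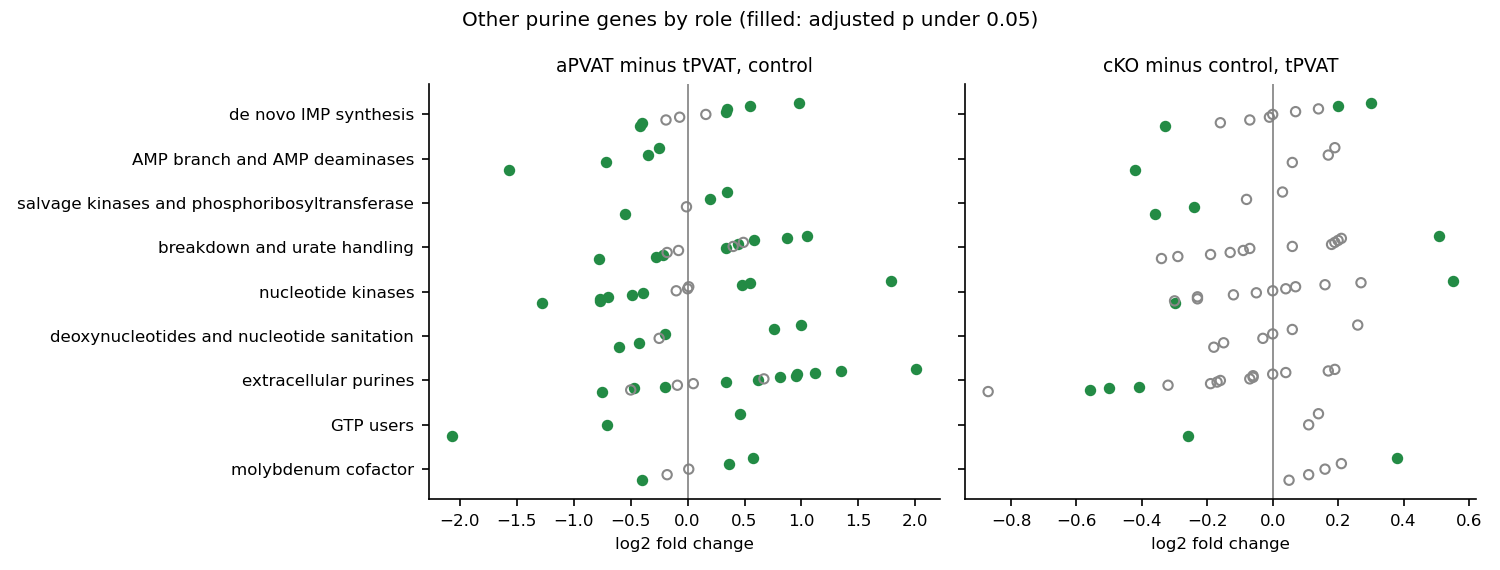
Log2 fold change of the tested genes of the other purine list (horizontal axis), arranged by role (vertical axis), for abdominal against thoracic controls (left) and for knockout against control in thoracic fat (right), with 1 point per gene and filled points for an edgeR adjusted p under 0.05. Filled points lie on both sides of 0, with 27 higher and 25 lower on the left, and 5 higher and 9 lower on the right.

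Markers of thermogenic adipocytes and of other cell types also differed among the groups. In whole tissue, fewer cells of a type and less RNA per cell cannot be told apart. The 8 thermogenic markers summed to 8799 to 9524 CPM in thoracic controls, 5588 to 6815 in thoracic knockouts, 714 to 1204 in abdominal controls and 135 to 196 in abdominal knockouts, none at 0, and thus had the same order of groups as Gmpr and Impdh1. All 8 were lower in abdominal fat in both genotypes (27.3% of all genes in controls, 25.4% in knockouts). With loss of Prdm16, 2 of 8 fell in thoracic fat (6.61% of all genes) and 5 of 8 in abdominal fat (0.789%). In thoracic fat Ucp1, at 6257 CPM in controls and 4059 in knockouts, made up most of the sum. Ucp1 was not called there (log2 change -0.62 ± 0.543, edgeR adjusted p = 0.508), though its libraries did not overlap. The fit shares 1 spread per gene over all 4 groups, and the abdominal knockouts held 5.56, 47.8 and 3.15 CPM. That SE is therefore not the spread of the thoracic libraries alone. The 6 endothelial markers, 4 of which were higher and 1 lower in abdominal controls, summed to 923 to 1044 CPM in thoracic controls, 813 to 861 in thoracic knockouts, 1371 to 1779 in abdominal controls and 1265 to 1516 in abdominal knockouts, none at 0. All 6 macrophage markers were higher in abdominal fat in both genotypes (29.3% of all genes in controls, 27.2% in knockouts). They summed to 331 to 385, 285 to 383, 585 to 787 and 413 to 609 CPM in the 4 groups, none at 0. With loss of Prdm16 in thoracic fat, 2 of 6 endothelial markers fell and none rose, and no macrophage marker was called. In abdominal controls 3 of 5 fibroblast, 3 of 5 lymphocyte and 4 of 6 proliferation markers were also higher, and none lower. The adipocyte markers summed to 12650 to 13536 CPM in thoracic controls and 15334 to 16445 in thoracic knockouts, where 3 of 8 rose (5.44% of all genes) and none fell. The part of these cells in the differences of Gmpr, Impdh1, Hprt and Xdh was not tested.

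Heart muscle markers were present in thoracic fat, and Gmpr is also known from heart. The 6 markers (Myh6, Tnnt2, Tnni3, Myl7, Nppa and Actc1) summed to 183, 188, 252 and 191 CPM in thoracic controls 1 to 4 and to 87.7, 65.3, 188 and 156 CPM in thoracic knockouts 1 to 4. They summed to between 11.6 and 16.6 CPM in abdominal libraries, and none was at 0. All 6 were lower in abdominal fat in both genotypes (27.3% of all genes in controls, 25.4% in knockouts). With loss of Prdm16 in thoracic fat 2 of 6 fell (6.61% of all genes). The part of heart muscle RNA in the differences of Gmpr was not tested. Leaving out any 1 library kept the thoracic genotype change of Gmpr between -1.77 and -1.52 on the log2 scale.

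**Figure D5:**
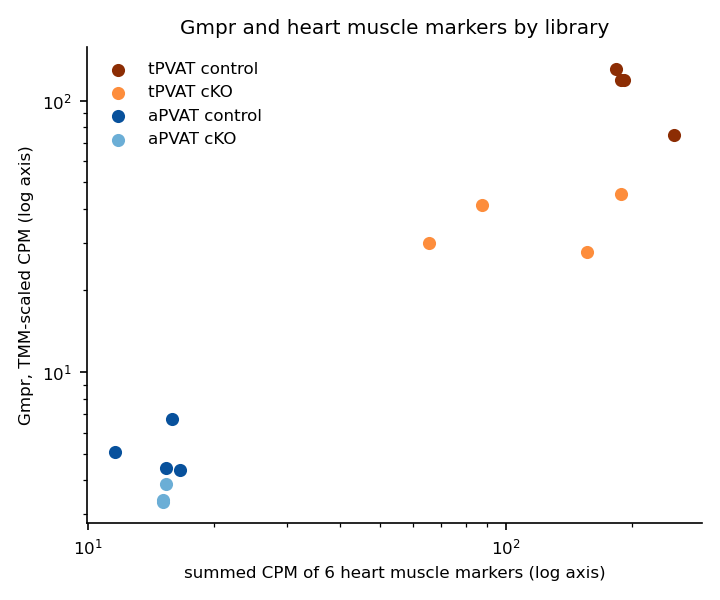
Level of Gmpr in TMM-scaled CPM against the summed level of 6 heart muscle markers in CPM, both on log axes, with 1 point per library and a colour per group. The abdominal libraries lie at marker sums of 11.6 to 16.6 with Gmpr at 6.72 or lower, the thoracic knockouts at 65.3 to 188 with Gmpr at 27.7 to 45.2, and the thoracic controls at 183 to 252 with Gmpr at 74.6 to 131.

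Genes whose log2 levels ran closest to those of Gmpr, Impdh1 and Xdh over the 15 libraries were named by the root mean square difference of the centred log2 levels among 12149 genes, as a description. Closest to Gmpr were Myl4, Aspg, Lgr6, Tnnt2 and Me3, at 0.522 to 0.624, where the median gene was at 2.03. Myl4, the atrial light chain of myosin, and Tnnt2, the cardiac troponin T, are heart muscle genes, and Tnnt2 is among the markers above. Me3, a mitochondrial malic enzyme, was at 38.3, 13.6, 4.55 and 1.80 CPM in the 4 groups. Closest to Impdh1 were Macrod1, Sfxn5, Tmem246, Ech1 and Slc24a3, at 0.157 to 0.182, against a median of 0.817. Ech1, an enzyme of the oxidation of unsaturated fatty acids, was at 781, 484, 291 and 214 CPM. Closest to Xdh were Agfg2, Steap3, Kctd21, Id3 and Cndp2, at 0.116 to 0.13, against a median of 0.373. The SD of Xdh itself over the 15 libraries was 0.3 on the log2 scale, against 2.02 for Gmpr and 0.794 for Impdh1.

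Pnp, the purine nucleoside phosphorylase, had no row of its own name in the annotation used. A row named Gm49342 in the annotation overlaps 718 exon bases of Pnp on the same strand, and 95.4% of its stretches of 50 bases also occur in Pnp. In the annotation behind the counts, which is not named, the row may have stood for Pnp itself, so these values may be those of Pnp. The row stood at 89.9 ± 8.02 CPM in thoracic controls, 67.5 ± 2.1 in thoracic knockouts, 80.8 ± 15 in abdominal controls (SD, n = 4 each) and 72.2 ± 7.74 in abdominal knockouts (SD, n = 3). Between thoracic genotypes its log2 change was -0.41 ± 0.109, with no overlap of libraries, against 23.2% of all genes. As the row may be a listed gene, this is a description with no p-value. It was not called with abdominal loss of Prdm16 (-0.16 ± 0.118, edgeR adjusted p = 0.607). Nor was it called between depots in controls (-0.15 ± 0.109, edgeR adjusted p = 0.244) or in knockouts (0.10 ± 0.117, edgeR adjusted p = 0.504). The row was not counted among the 8 genes.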

How the data were processed

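RNA of whole tissue was prepared with a stranded poly(A) kit, per the labels' protocols. The authors deposited raw counts per gene for all 15 libraries in one table. The submitters' processing notes name Salmon, Subread, DESeq2 1.42.1 and mm10; their roles and the strand setting of the counting are unstated there (not given in the sources used here). Of 43352 identifiers, 42462 were in GENCODE M21, which gave names, coordinates and exon lengths. From the counts, edgeR 4.0.16 (R 4.3.3) was run with TMM scaling, filterByExpr (minimum count 10), 1 model of 4 group means and quasi-likelihood tests, with Benjamini-Hochberg adjustment over 19645 genes and a threshold of 0.05; SE is the log2 change over the square root of F. The 8 genes had 155 to 20940 counts per library. There were 24 alternatives, among them DESeq2 1.42.0 and limma 3.58.1. The edgeR fit was tested on simulated counts. The members, lists and alternatives were chosen with earlier results of these data known. Named were the members, Prdm16, Ucp1, up to 8 called genes of the other purine list with the smallest p in each comparison, and the 5 genes closest to Gmpr, Impdh1 and Xdh (mean log2 CPM of at least 1, predicted genes left out); 1 gene that the rule names is not reported here. Protein sequences were not used here.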

Additional observations from a re-analysis of the deposited data

Results flagged for a closer look

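Impdh1 passed the threshold for the fitted difference between the genotype effects of the 2 depots: the log2 change in abdominal fat minus that in thoracic fat was 0.60, from -0.39 in abdominal and -0.99 in thoracic fat. Impdh1 was put on the list for its low thoracic level, so this is a description, and the call was lost by library totals, without the 2 libraries of high ribosomal RNA and without any 1 of 9 single libraries. Levels of the 8 genes in the 24 groups of 4 libraries had no library far enough from the others to pass Dixon's critical value.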

How the results depend on the processing

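Of the counts of the 8 genes, those for thoracic genotype (3) and for both depot comparisons kept within 1.5 times of their value under all 24 alternatives. In abdominal fat, loss of Prdm16 called 2 of the 8 by DESeq2, and 0 to 1 when 1 library was left out. The difference between genotype effects called 2 by DESeq2, 0 by library totals, 0 without the 2 libraries of high ribosomal RNA, and 0 to 2 when 1 library was left out. When 1 library was left out, 3 were called in thoracic fat, 6 to 7 between depots in controls and 5 to 7 in knockouts. Of the other purine genes, abdominal loss of Prdm16 called 3 by DESeq2, 1 by library totals, 2 without mitochondrial genes, 1 with weights per library and 0 to 2 with 1 library left out. Their difference between genotype effects called 2 by DESeq2, 1 by library totals, 2 with weights, 1 without the 2 libraries and 0 to 1 with 1 library left out. With 1 library left out, 10 to 16 of them were called in thoracic fat, 46 to 52 between depots in controls and 41 to 51 in knockouts. The log2 change turned its sign, at sizes near 0, for Gmpr2 with abdominal loss of Prdm16 (0.01 with weights, -0.06 to 0.01 with 1 library left out, the highest without abdominal control 1), for Gmps there (-0.01 by totals, -0.00 without the low-count filter, -0.03 with weights, and -0.05 to 0.06 with 1 library left out, negative without abdominal control 1 at -0.05 and abdominal knockout 3 at -0.03) and for Gmpr2 between depots in controls (0.00 without the filter, -0.06 to 0.00 with 1 library left out, the highest without abdominal control 4). It also turned near 0 for the thoracic changes of Gmpr2 (-0.01 without thoracic knockout 2), Impdh2 (0.03 by totals, 0.02 without thoracic control 2), Gmps (0.01 by totals) and Adsl (0.02 by totals), and for the differences between genotype effects of Impdh2 (0.01 to 0.03 without any 1 of 5 libraries), Gmps (-0.02 by totals) and Adsl (0.01 without abdominal control 1). By totals, which moved the median of all genes, it turned to 0.72 for Gmpr2 and 0.56 for Adsl in controls, and to 0.55 and 0.39 in knockouts. Over all genes, abdominal loss of Prdm16 called 301, against 604 by DESeq2, 92 with only the 2 groups compared and 161 without abdominal knockout 1; thoracic loss called 2367, against 4080 with weights and 3726 with only the 2 groups; and the difference between genotype effects called 154, against 350 by DESeq2. The causes were not tested. Correlations of same-numbered libraries between depots ran from 0.00273 to 0.0482 in controls and from -0.03 to 0.165 in knockouts. With the comparisons of genotypes included they ran from -0.222 to 0.169. The numbers were therefore not taken as pairs. With the number as a replicate block, 3, 0, 6, 6 and 1 of the 8 genes were called in thoracic genotype, abdominal genotype, depot in controls, depot in knockouts and the difference. With a random replicate block the counts were 3, 0, 7, 6 and 1. The other purine genes gave 14, 0, 50, 45 and 0 with the first replicate block and 13, 1, 52, 46 and 0 with the second. Depth limits Impdh2 most, at 155 counts in its lowest library.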
